A study of Mus musculus with 9 samples.

Results

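The circadian clock genes described here are 10 genes chosen by name, out of 48709 genes listed for each library. They are the activators Clock, Npas2 and Arntl, the repressors Per1, Per2, Per3, Cry1 and Cry2, the nuclear receptor gene Nr1d1 and the output gene Dbp. All 10 passed the filter on low counts, which 17361 genes passed in all. RNA was taken from NeuN-sorted nuclei of frozen hippocampi, and each library came from a single C57BL/6J background mouse aged 6 months. WT mice and Tg4-42 mice drank tap water as vehicle, and a second set of Tg4-42 mice drank water with 0.3 g/l caffeine from 2 months of age for 4 months, with 3 libraries in each of the 3 groups. The labels give a treatment only for the caffeine mice, so that "vehicle" rests on the study's methods. Tg4-42 mice are homozygous for a transgene in which the murine Thy1 promoter drives human Aβ4-42 in neurons, fused to the signal peptide of thyrotropin-releasing hormone. There was no library from caffeine-treated WT mice among those analysed, so an effect of caffeine could be compared in Tg4-42 mice only. Mice were housed with lights off at 8 a.m. and were killed between 9 and 12 a.m., on the day after their behavioural tests, and the time at which each mouse was killed is not given in the sources used here. All values therefore come from a window of a few hours early in the dark phase, and no daily rhythm could be measured.

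The mammalian clock is a transcriptional feedback loop that runs with a period of about a day in nearly every cell, neurons of the hippocampus included. The protein products of Clock (or its paralog Npas2) and Arntl, also called Bmal1, bind E-box sequences as pairs and activate the Per and Cry genes, whose proteins return to the nucleus and repress that pair. In a second loop Nr1d1 and Nr1d2 repress Arntl and compete with the Ror receptors that activate it, while Dbp, Tef and Hlf act on D-box sequences against their repressor Nfil3. Per1 and Per2 are also induced directly by neuronal activity and by glucocorticoids, and caffeine, an antagonist of adenosine receptors, is known to lengthen the period of the clock in cultured cells.

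The promoter windows of the genes were searched for the elements of these loops. RefSeq windows of 300 bases around a transcription start (build GRCm38.p6) were found for 9 of the 10 genes, 13 windows in all, and Per2 had no entry. They were searched on both strands for the E-box CACGTG, the related E-box CACGTT (read as AACGTG on the other strand), the D-boxes TTATGTAA and TTACGTAA, the cyclic AMP response element TGACGTCA and the ROR element. Among all 32851 windows of the table, 7.15% held CACGTG, 4.68% CACGTT, 0.938% TTATGTAA, 0.119% TTACGTAA, 1.79% TGACGTCA and 0.384% the ROR element. The 4 windows below are shown because among them they hold the E-boxes, the D-box and the ROR element that were found, with the motifs in capitals. The first Per1 window (chr11:69098699-69098998, plus strand) holds CACGTG at position -166, where positions give the first base of a motif relative to the start. The Per3 window (chr4:151044616-151044915, minus strand) holds TTATGTAA in 2 copies, at positions -205 and -158. In the Cry1 window (chr10:85185005-85185304, minus strand) CACGTT lies at position -79 and CACGTG at position -60. The second Arntl window (chr7:113207261-113207560, plus strand) holds a ROR element at position 27.
Per1: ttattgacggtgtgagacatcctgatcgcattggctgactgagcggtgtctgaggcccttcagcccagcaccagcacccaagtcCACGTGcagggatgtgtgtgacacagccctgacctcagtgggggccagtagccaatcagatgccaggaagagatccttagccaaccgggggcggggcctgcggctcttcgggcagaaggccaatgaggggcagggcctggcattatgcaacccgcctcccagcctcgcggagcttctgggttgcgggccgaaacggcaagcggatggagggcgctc
Per3: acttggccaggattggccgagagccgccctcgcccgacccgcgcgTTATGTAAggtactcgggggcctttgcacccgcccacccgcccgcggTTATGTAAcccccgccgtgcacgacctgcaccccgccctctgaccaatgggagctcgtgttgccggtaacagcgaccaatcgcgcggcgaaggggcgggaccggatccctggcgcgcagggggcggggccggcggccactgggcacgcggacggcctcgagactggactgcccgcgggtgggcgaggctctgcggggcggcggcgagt
Cry1: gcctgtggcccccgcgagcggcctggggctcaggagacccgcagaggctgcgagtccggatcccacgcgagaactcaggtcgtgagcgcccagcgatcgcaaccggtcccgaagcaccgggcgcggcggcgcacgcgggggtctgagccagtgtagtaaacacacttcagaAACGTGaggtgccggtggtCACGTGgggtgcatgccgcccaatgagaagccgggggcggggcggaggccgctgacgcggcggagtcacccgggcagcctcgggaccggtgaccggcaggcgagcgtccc
Arntl: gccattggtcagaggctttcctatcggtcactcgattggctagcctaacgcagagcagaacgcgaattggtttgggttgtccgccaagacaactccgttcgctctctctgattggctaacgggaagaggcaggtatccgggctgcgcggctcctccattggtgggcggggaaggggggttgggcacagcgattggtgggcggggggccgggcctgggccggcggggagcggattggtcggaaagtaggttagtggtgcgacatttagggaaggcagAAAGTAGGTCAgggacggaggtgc
CACGTT was also present in the windows of Cry2, at position -166, and of Nr1d1, at position -28. The second Per1 window, the first Arntl window and the windows of Clock, Npas2 and Dbp held none of the motifs. TTACGTAA and TGACGTCA were absent from all 13. A match is only a run of letters, and clock elements outside these windows were not searched.

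All 10 genes were expressed well above the detection floor of 3 counts. Levels are given as CPM, which are counts scaled to a common library size by TMM. The lowest count of any clock gene in any mouse was 85, for Dbp in Tg4-42 vehicle mouse 1, whose library of 9342945 counts was the smallest of libraries reaching 16376922. To compare genes with each other, CPM was divided by the length of the union of annotated exons. On this scale of CPM per kb, Cry2 had the highest level with 25.6 ± 3.21 (SD, n = 9 mice), followed by Clock with 19.7 ± 1.54, Nr1d1 with 17.9 ± 2.84, Per3 with 16.3 ± 2.86 and Per2 with 11.3 ± 3.70. A second set of genes lay lower, with Arntl at 6.55 ± 0.692, Dbp at 4.97 ± 1.40, Per1 at 4.42 ± 1.06, Cry1 at 4.22 ± 1.48 and Npas2 at 4.20 ± 0.825 CPM per kb. Between neighbours in this order the ranges of the 9 mice overlapped at every step but one, the step from Per2 down to Arntl, where the mean fell 1.73 times and the lowest Per2 mouse (8.32) was above the highest Arntl mouse (7.49). The median tested gene stood at 4.93 CPM per kb, so that Cry2 was above 88.5% of tested genes and Npas2 above 46.3% of them.

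**Figure D1:**
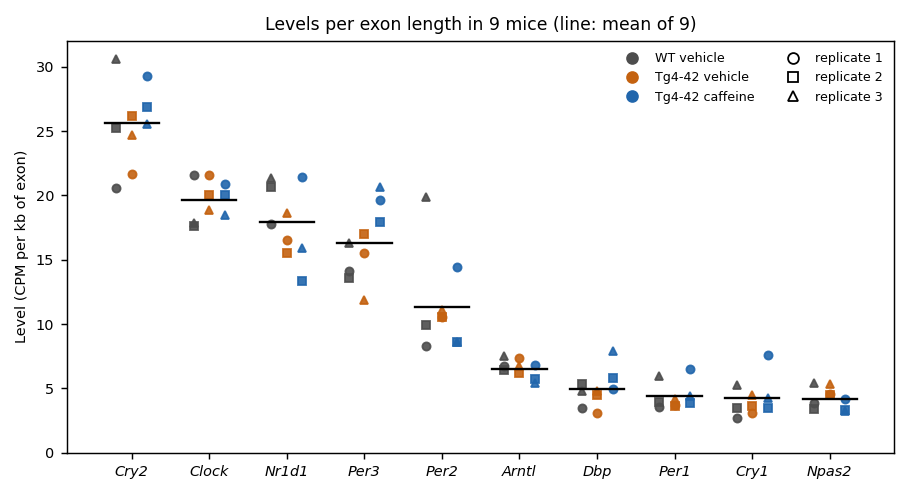
Level of each clock gene in CPM per kb of exon (y axis, linear) for the 10 genes ordered by their mean (x axis), with 1 point per mouse, colors for the 3 groups, marker shapes for the replicates and a line at the mean of the 9 mice. The points of Per2 lie above those of Arntl without overlap, whereas every other pair of neighbours overlaps.

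Within each family of paralogs a single gene held the larger level per kb in the mean of the 9 mice. Cry2 was 6.43 times Cry1 (3.85 to 7.78 in single mice) and Clock was 4.84 times Npas2 (3.31 to 6.01), so that in both pairs the same gene led in every mouse. Per2 was 2.55 times Per1 (1.95 to 3.35), and Per3 was 1.54 times Per2, with a range from 0.822 to 2.41 that crosses equality. Nr1d1 and its paralog Nr1d2 were near parity, with an Nr1d2 to Nr1d1 ratio of 0.897 (0.806 to 1.05), as were Arntl and Arntl2 (0.893, 0.629 to 1.2). Overlapping exons limit some of these levels, since the libraries were made with SMART-Seq and Nextera XT kits and no use of strand is described. Dbp shares 539 exon bases with Sphk2 on the opposite strand, Nr1d1 shares 263 with Thra, Cry2 shares 295 with D930015M05Rik and Arntl shares 33 with Gm45355, and reads of such partners cannot be told apart without strand. Sphk2 had up to 489 counts in a mouse and Thra up to 2950, where Dbp had at most 308 and Nr1d1 at most 1016. D930015M05Rik had at most 18 counts and Gm45355 at most 3. The span of Per3 overlaps that of Camta1 on the same strand, with 0 shared exon bases and up to 4226 Camta1 counts in a mouse. Any part of Camta1 RNA in the Per3 counts was not tested.

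Between groups, no clock gene reached an adjusted p under 0.05 in any of the 3 comparisons by edgeR's quasi-likelihood test with Benjamini-Hochberg adjustment over all tested genes, nor by DESeq2 or limma-voom. The background was small as well, with 0.0979% of tested genes called between Tg4-42 vehicle and WT vehicle mice, 0.881% between Tg4-42 caffeine and Tg4-42 vehicle mice and 0.415% between Tg4-42 caffeine and WT vehicle mice. DESeq2 called 0.102%, 5.12% and 3.85% of the genes it tested in the same order, and limma-voom 0.0922%, 3.56% and 0.611%. At an unadjusted p under 0.05 there were 0 of the 10 clock genes in the first comparison, where 2.74% of tested genes were under it, 3 in the second, where 17.0% were, and 1 in the third, where 15.4% were. With only 10 genes, these shares were not read as a result about the clock genes. The median log2 fold change of the 10 genes was -0.05 (3 higher, 7 lower) between Tg4-42 vehicle and WT vehicle, 0.09 (5 higher, 5 lower) between Tg4-42 caffeine and Tg4-42 vehicle and 0.08 (6 higher, 4 lower) between Tg4-42 caffeine and WT vehicle. Over all tested genes the medians were 0.00, -0.01 and -0.01. In simulated counts of the caffeine against vehicle comparison, the same fit recovered 93% of genes changed 2-fold. The largest fold estimate of a clock gene in that comparison was smaller, at 1.51 for Dbp. Recovery at such sizes was not tested, so the 93% does not apply to the clock genes. The comparisons share groups with each other, so that a gene's values in 2 of them are not independent.

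**Figure D2:**
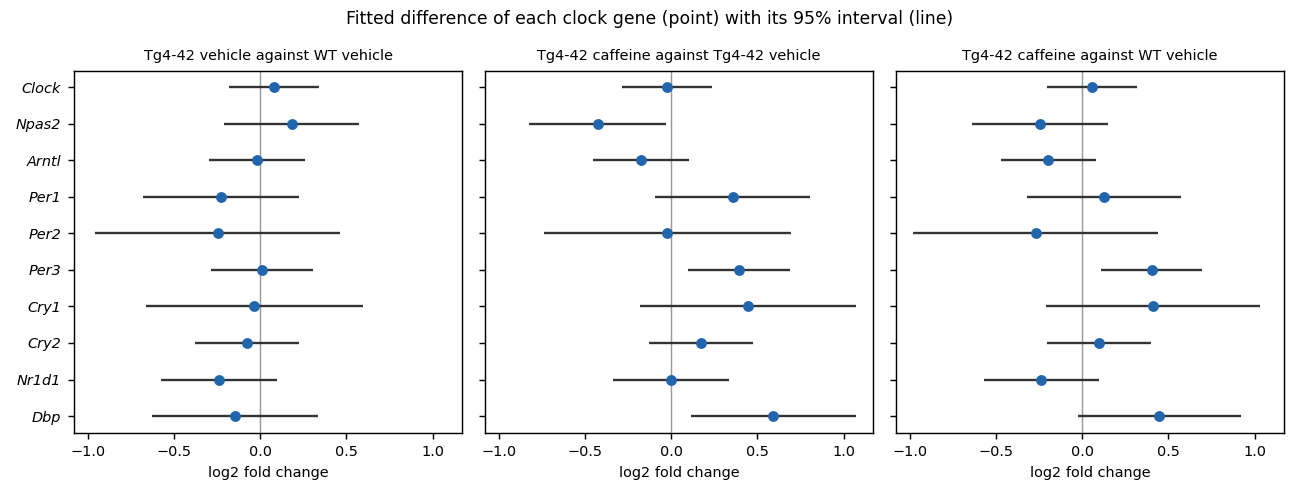
Log2 fold change of each clock gene in the 3 comparisons from the edgeR fit (x axis in log2 units, genes on the y axis), with bars for the 95% confidence interval and a line at 0. Per3 lies above 0 in both comparisons of caffeine mice, and no gene passed the adjusted threshold.

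Per3, the period paralog that is dispensable for rhythm itself and is known for its link to sleep, was the clock gene with the smallest p in both comparisons of caffeine mice. Its counts were 136, 131 and 157 CPM in the WT vehicle mice, 149, 163 and 114 CPM in the Tg4-42 vehicle mice and 189, 172 and 198 CPM in the Tg4-42 caffeine mice. The 3 caffeine mice were above all 6 vehicle mice, and the WT and Tg4-42 vehicle mice overlapped. Against Tg4-42 vehicle mice its log2 fold change was 0.39 with a standard error of 0.139 and a 95% confidence interval of 0.098 to 0.686, and edgeR gave an unadjusted p of 0.0122 and an adjusted p of 0.168. Against WT vehicle mice it was 0.40 (standard error 0.138, interval 0.109 to 0.696, adjusted p 0.178 from the same edgeR test), and between Tg4-42 vehicle and WT vehicle mice it was 0.01 (interval -0.284 to 0.305, adjusted p 1.00). The two-sided exact permutation test gave p = 0.1 for either comparison of caffeine mice, the smallest that 3 against 3 allow. The lowest vehicle value came from Tg4-42 vehicle mouse 3, and without it the log2 fold change against Tg4-42 vehicle was 0.27.

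Dbp, a D-box activator whose transcription follows the clock closely in many tissues, was the other clock gene that was higher in caffeine than in vehicle Tg4-42 mice without overlap. In WT vehicle mice it stood at 10.4, 16.0 and 14.5 CPM, in Tg4-42 vehicle mice at 9.20, 13.4 and 14.3 CPM and in Tg4-42 caffeine mice at 14.9, 17.4 and 23.7 CPM. Every caffeine mouse was above every Tg4-42 vehicle mouse, by a narrow gap between 14.3 and 14.9, while caffeine mouse 1 was below WT vehicle mouse 2. The log2 fold change between Tg4-42 caffeine and Tg4-42 vehicle was 0.59 (standard error 0.225, interval 0.115 to 1.07, adjusted p 0.196 by edgeR), and the exact permutation p was 0.1. It was 0.45 between Tg4-42 caffeine and WT vehicle (adjusted p 0.351, exact permutation p 0.2) and -0.15 between Tg4-42 vehicle and WT vehicle (adjusted p 1.00). Caffeine mouse 3 was the highest, and without it the log2 fold change against Tg4-42 vehicle was 0.39. Any part of Sphk2 reads in these Dbp values was not tested.

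Npas2, a paralog that can take the place of Clock in the activating pair and is prominent in the forebrain, was the clock gene that was lower in caffeine than in vehicle Tg4-42 mice without overlap. It was measured at 18.5, 16.4 and 25.9 CPM in WT vehicle, 22.0, 21.4 and 25.7 CPM in Tg4-42 vehicle and 20.0, 16.0 and 15.4 CPM in Tg4-42 caffeine mice. The caffeine mice were all below the Tg4-42 vehicle mice, and caffeine mice 2 and 3 were also below the lowest WT vehicle mouse, while caffeine mouse 1 lay among the WT vehicle mice. Between Tg4-42 caffeine and Tg4-42 vehicle the log2 fold change was -0.43 (standard error 0.187, interval -0.824 to -0.030, adjusted p 0.261 by edgeR), with an exact permutation p of 0.1. The other 2 comparisons gave -0.24 for Tg4-42 caffeine against WT vehicle (adjusted p 0.556 by edgeR) and 0.18 for Tg4-42 vehicle against WT vehicle (adjusted p 1.00). The ratio of Clock to Npas2 per kb was 4.24 ± 0.640 (SD, n = 3) in Tg4-42 vehicle and 5.59 ± 0.521 (SD, n = 3) in Tg4-42 caffeine mice without overlap (two-sided exact permutation p 0.1). In WT vehicle mice it was 4.69 ± 1.21 (SD, n = 3). The same permutation test gave p = 0.4 for Tg4-42 caffeine and 0.6 for Tg4-42 vehicle against WT vehicle mice.

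Per3, Dbp and Npas2 are thus 3 of 10 clock genes whose caffeine and vehicle Tg4-42 mice did not overlap, where 23.0% of all tested genes did not. Per3 was the 1 clock gene without overlap between Tg4-42 caffeine and WT vehicle mice (18.8% of tested genes), and there was 0 between Tg4-42 vehicle and WT vehicle mice (6.73%). Replicates 1 and 2 of each group were sequenced on lane 6 and replicate 3 on lane 7. With the 2 mice a group of lane 6 alone, the log2 fold changes between Tg4-42 caffeine and Tg4-42 vehicle were 0.23 for Per3, 0.52 for Dbp and -0.25 for Npas2, with edgeR adjusted p of 0.90, 0.888 and 0.918, and lane 7 holds too few mice for a value of its own.

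Marker genes of hippocampal cell types were compared between the same groups. These lists were chosen with earlier results of these data known. The dentate granule cell list includes Dsp and Prox1, which the study names among genes upregulated with caffeine in these libraries. A shared direction within that list is therefore not independent of those results. All 14 dentate granule cell markers had a higher estimate in Tg4-42 caffeine than in Tg4-42 vehicle mice, 2 of them (Plk5 and Stxbp6) with an adjusted p under 0.05 by edgeR, and their summed level was 1286 to 1689 CPM in caffeine mice against 610 to 1211 CPM in Tg4-42 vehicle and 817 to 1089 CPM in WT vehicle mice. The 6 CA3 pyramidal markers had a median log2 fold change of 0.22 in that comparison, with 4 higher and 2 lower. The lower ones, Mgat4c and Dkk3, fell by 0.75 and 0.71 on the log2 scale (edgeR adjusted p 0.0399 and 0.0499), while Iyd, at 0.91, was not called by edgeR (adjusted p 0.106) but was by DESeq2. Dkk3 alone averaged 509 CPM in caffeine and 833 CPM in Tg4-42 vehicle mice and so made up most of the sum of the 6, which was 690 to 877 CPM and 1052 to 1196 CPM. Of the 7 CA1 markers, 5 had a lower and 2 a higher estimate in Tg4-42 caffeine than in WT vehicle mice (median log2 fold change -0.22). Against Tg4-42 vehicle mice 6 were lower and 1 was higher, at 0.70 (median -0.13). The CA1 marker Wfs1 fell by 0.77 against WT vehicle mice (edgeR adjusted p 0.0408), and the 7 CA1 markers summed to 495 to 524 CPM with caffeine, 543 to 654 CPM in Tg4-42 vehicle and 569 to 752 CPM in WT vehicle mice. These 5 calls were lost with the lane in the model, where edgeR gave adjusted p of 0.0575 for Plk5, 0.0582 for Stxbp6, 0.0553 for Mgat4c, 0.0752 for Dkk3 and 0.0607 for Wfs1, and with RLE scaling that of Dkk3 was 0.0515. With lane 6 alone, which leaves 2 mice a group, all 5 were above 0.4, and the directions were kept in each of these fits. None of the 6 oligodendrocyte, 6 astrocyte and 6 microglia markers passed the threshold by edgeR in any comparison, while between Tg4-42 caffeine and Tg4-42 vehicle mice DESeq2 called 3, 1 and 0 of them and limma-voom 4, 3 and 1. Of all genes each tool tested, edgeR called 0.881%, DESeq2 5.12% and limma-voom 3.56% in that comparison. There, 6, 5 and 6 of the oligodendrocyte, astrocyte and microglia markers had a lower estimate with caffeine, with median log2 fold changes of -0.69, -0.76 and -0.56. The unadjusted p by edgeR was under 0.05 in 4, 3 and 2 of them, and in 17.0% of all tested genes. Their sums in Tg4-42 caffeine and Tg4-42 vehicle mice were 253 to 362 and 362 to 508 CPM for oligodendrocytes, 276 to 349 and 296 to 415 CPM for astrocytes and 37.7 to 46.5 and 46.8 to 70.3 CPM for microglia. The 5 endothelial markers summed to at most 2.91 CPM in any mouse (Cldn5, Flt1, Pecam1, Tek and Cdh5). The 6 neuron markers summed to 6180 to 7359 CPM in caffeine, 7154 to 8803 CPM in Tg4-42 vehicle and 7645 to 7950 CPM in WT vehicle mice. Of these, 5 had a lower estimate in caffeine than in vehicle Tg4-42 mice, among them Syt1 with -0.44, which edgeR did not call (adjusted p 0.132) but DESeq2 and limma-voom did. The part of these differences in the values of Per3, Dbp and Npas2 was not tested, and in bulk nuclei fewer cells of a type and less RNA per cell cannot be told apart.

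**Figure D3:**
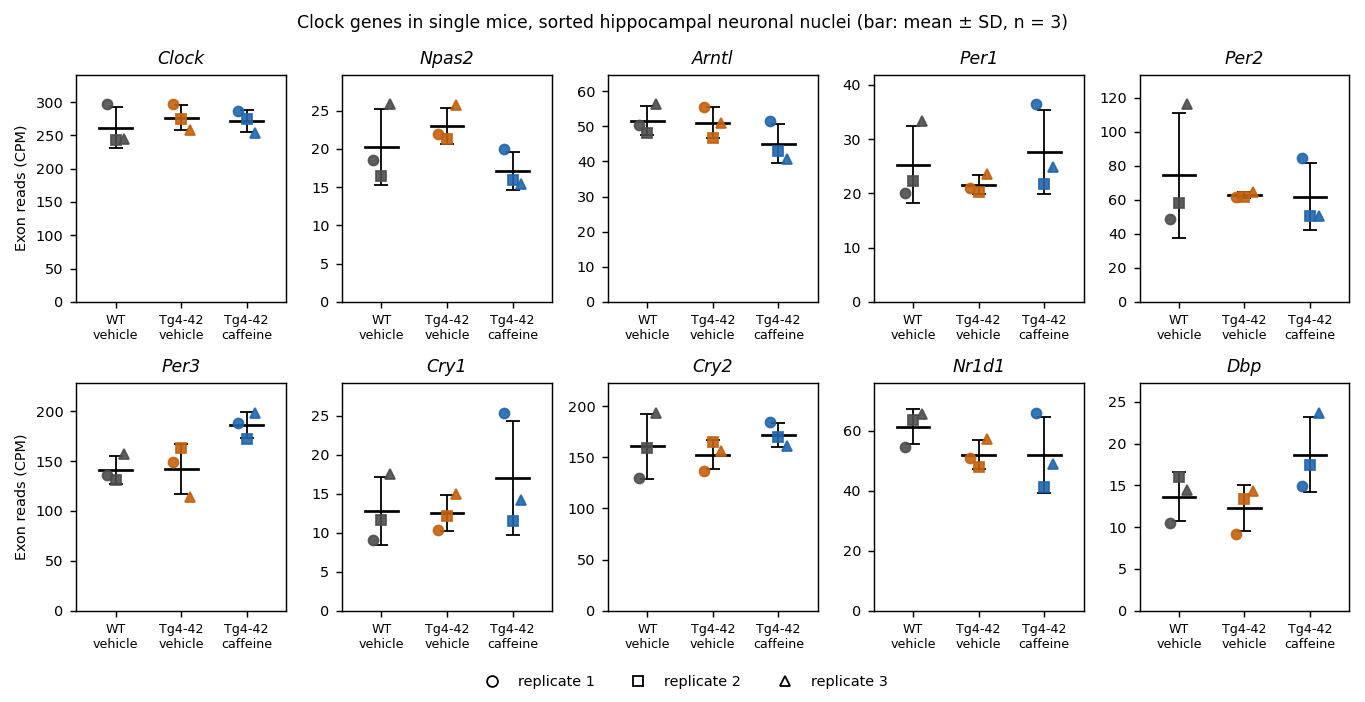
CPM of each of the 10 clock genes (y axes, linear and starting at 0, each gene with its own scale) in the 3 groups (x axis), with 1 point per mouse, marker shapes for replicates, a bar at the mean and whiskers for the SD (n = 3). The Per3 points of the caffeine mice all lie above the vehicle mice. For Per2, WT vehicle mouse 3 and caffeine mouse 1 lie above the rest, and Cry1 has a single mouse far above the rest.

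The main activators varied least. Clock, the usual partner of Arntl in the activating pair, ranged from 242 to 297 CPM in WT vehicle, 259 to 297 CPM in Tg4-42 vehicle and 253 to 287 CPM in Tg4-42 caffeine mice. Its log2 fold changes were 0.08 between Tg4-42 vehicle and WT vehicle, -0.03 between Tg4-42 caffeine and Tg4-42 vehicle (interval -0.286 to 0.234) and 0.06 between Tg4-42 caffeine and WT vehicle, with edgeR adjusted p of 1.00, 0.937 and 0.870. Arntl, the obligatory partner without which the loop stops, ranged from 48.1 to 56.3 CPM in WT vehicle, 46.6 to 55.5 CPM in Tg4-42 vehicle and 40.8 to 51.4 CPM in Tg4-42 caffeine mice. All 3 groups overlapped for both genes. For Arntl, the log2 fold change was -0.18 in Tg4-42 caffeine against Tg4-42 vehicle mice (interval -0.455 to 0.10, edgeR adjusted p 0.524) and -0.20 against WT vehicle mice (edgeR adjusted p 0.491).

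Per2, the period gene that responds to light and activity signals as well as to the clock, differed more between mice of a group than between groups. It was at 48.7, 58.2 and 116 CPM in WT vehicle mice, 61.7, 61.7 and 64.9 CPM in Tg4-42 vehicle mice and 84.7, 50.5 and 50.3 CPM in Tg4-42 caffeine mice. WT vehicle mouse 3 and caffeine mouse 1 stood above all others, and the remaining 7 mice lay between 48.7 and 64.9. The log2 fold change was -0.02 between Tg4-42 caffeine and Tg4-42 vehicle, with a wide interval of -0.736 to 0.692 (edgeR adjusted p 0.980), -0.27 between Tg4-42 caffeine and WT vehicle (edgeR adjusted p 0.729) and -0.25 between Tg4-42 vehicle and WT vehicle. Without WT vehicle mouse 3 the last became 0.22, and Tg4-42 caffeine against WT vehicle became 0.21.

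Per1, the most rapidly inducible of the period genes, followed the same mice. Its values were 20.2, 22.3 and 33.4 CPM in WT vehicle, 21.0, 20.3 and 23.6 CPM in Tg4-42 vehicle and 36.5, 21.8 and 24.8 CPM in Tg4-42 caffeine mice. The groups overlapped, and the highest mice were again caffeine mouse 1 and WT vehicle mouse 3. The log2 fold change between Tg4-42 caffeine and Tg4-42 vehicle was 0.36 (interval -0.096 to 0.808, edgeR adjusted p 0.421) and became 0.11 without caffeine mouse 1. The ratio of Per2 to Per1 per kb was lower in caffeine mice, 2.14 ± 0.164 (SD, n = 3), than in Tg4-42 vehicle mice, 2.80 ± 0.143 (SD, n = 3), and WT vehicle mice, 2.73 ± 0.545 (SD, n = 3), without overlap in either comparison. The two-sided exact permutation p was 0.1 for each, the smallest these numbers of mice allow, among 6 ratios compared.

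Cry1, the stronger repressor of the cryptochrome pair, had the widest range of the 10, with a highest mouse 2.79 times the lowest. WT vehicle mice had 9.10, 11.7 and 17.6 CPM, Tg4-42 vehicle mice 10.4, 12.1 and 14.9 CPM and Tg4-42 caffeine mice 25.4, 11.5 and 14.2 CPM. Caffeine mouse 1 was the highest by a wide margin, at 2.09 times the median of the 9 mice, and the groups overlapped. Between Tg4-42 caffeine and Tg4-42 vehicle the log2 fold change was 0.44 (interval -0.182 to 1.07, edgeR adjusted p 0.474), and without caffeine mouse 1 it was 0.04. Cry2, its paralog, ranged from 130 to 194 CPM in WT vehicle, 137 to 165 CPM in Tg4-42 vehicle and 161 to 185 CPM in Tg4-42 caffeine mice. These groups overlapped too, and the log2 fold change in caffeine against vehicle Tg4-42 mice was 0.17 (interval -0.130 to 0.472, edgeR adjusted p 0.581).

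Nr1d1, the heme-binding repressor of Arntl, was the gene with the smallest p among the 10 between Tg4-42 vehicle and WT vehicle mice. It stood at 54.7, 63.6 and 65.7 CPM in WT vehicle, 51.0, 47.9 and 57.3 CPM in Tg4-42 vehicle and 66.0, 41.1 and 48.9 CPM in Tg4-42 caffeine mice. Tg4-42 vehicle mouse 3 was above WT vehicle mouse 1, so that these groups overlapped, and the caffeine mice included both the highest and the lowest of the 9. The log2 fold change was -0.24 between Tg4-42 vehicle and WT vehicle (interval -0.573 to 0.097, unadjusted p 0.151 and adjusted p 1.00 by edgeR), -0.0005 between Tg4-42 caffeine and Tg4-42 vehicle (adjusted p 0.999) and -0.24 between Tg4-42 caffeine and WT vehicle (adjusted p 0.488). Nr1d2 followed with -0.20 between Tg4-42 vehicle and WT vehicle mice, which did not overlap, although its edgeR adjusted p was 1.00.

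The size of this spread between mice of a group was set against that of genes of similar level. The pooled SD within groups of log2 CPM was 0.45 for Per2, larger than for 99.4% of the 3071 tested genes whose mean CPM was within 1.5-fold of it. It was 0.45 for Cry1 (larger than for 94.7% of such genes), 0.32 for Per1 (89.1%), 0.32 for Dbp (82.8%) and 0.23 for Nr1d1 (79.8%), against a median of 0.22 over all tested genes. Cry2, Per3 and Npas2 followed with 0.19 (71.1%), 0.18 (67.0%) and 0.24 (64.8%). Arntl at 0.14 (32.5%) and Clock at 0.12 (26.3%) varied less than most genes of their level. The 4 genes with the largest SD thus comprised 2 period genes, Cry1 and Dbp, and the 2 with the smallest were the main activating pair.

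The same few mice carried the extremes. WT vehicle mouse 3 had the highest value of the 9 for 4 clock genes (Per2, Cry2, Arntl and Npas2), and caffeine mouse 1 had it for 3 (Per1, Cry1 and Nr1d1). Caffeine mouse 3 had the highest Per3 and Dbp together with the lowest Arntl and Npas2, and WT vehicle mouse 1 had the lowest value for 4 genes (Per1, Per2, Cry1 and Cry2). The other loop genes showed a like pattern in the same mice, with WT vehicle mouse 3 highest for 4 of 11 (Rorb, Bhlhe40, Bhlhe41 and Nfil3) and caffeine mouse 1 highest for another 4 (Nr1d2, Ciart, Tef and Hlf). The median deviation of the 10 clock genes from their mean over the 9 mice was 0.27 in WT vehicle mouse 3 and 0.24 in caffeine mouse 1 on the log2 scale, and between -0.23 and 0.01 in the others. WT vehicle mouse 3 was sequenced on lane 7 and caffeine mouse 1 on lane 6.

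**Figure D4:**
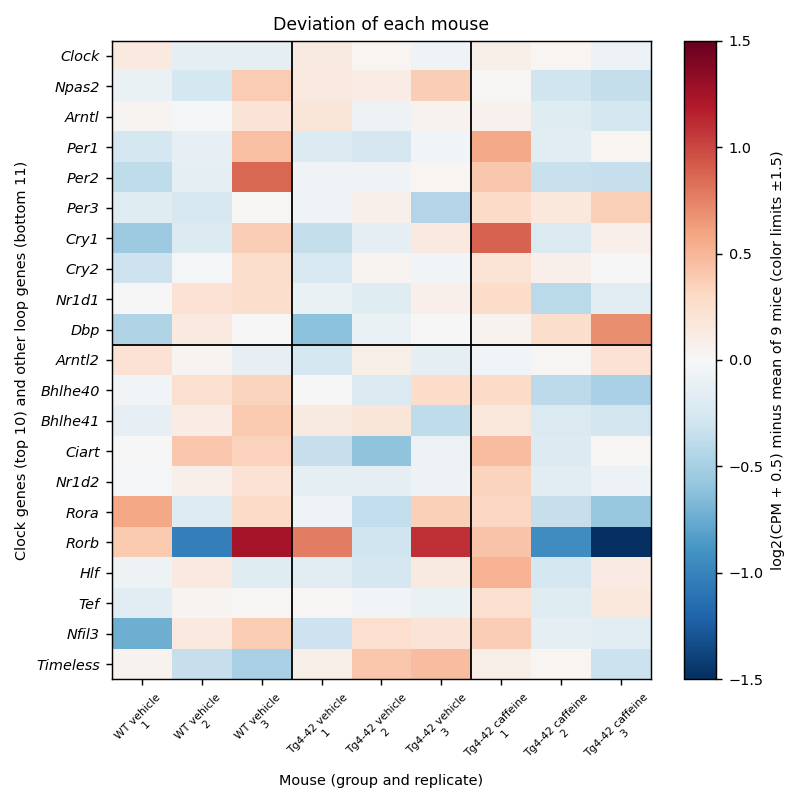
Heat map of log2(CPM + 0.5) minus the mean of the 9 mice (color scale in log2 units, limited to ±1.5) for the 10 clock genes above the horizontal line and 11 other loop genes below it, with 1 column per mouse. Per1, Per2 and Cry1 are red in WT vehicle mouse 3 and caffeine mouse 1, Dbp is reddest in caffeine mouse 3, and Rorb varies most of the genes shown.

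Activity-responsive genes were high in some of those mice. Over 14 such genes the median deviation from the mean of the 9 mice was -0.40, 0.51 and 0.58 in the WT vehicle mice, 0.08, -0.13 and 0.43 in the Tg4-42 vehicle mice and 0.57, -0.48 and -0.75 in the Tg4-42 caffeine mice (log2 scale). WT vehicle mouse 3 and caffeine mouse 1, the mice with high Per1 and Per2, were thus the highest of the 9, but WT vehicle mouse 2 and Tg4-42 vehicle mouse 3 were also high without a high Per2. Fos, the classical marker of recent neuronal firing, was at 25.7, 72.4 and 48.8 CPM in WT vehicle, 37.6, 36.3 and 54.6 CPM in Tg4-42 vehicle and 72.3, 22.4 and 6.07 CPM in Tg4-42 caffeine mice. No gene of this list passed the threshold in any comparison by edgeR, DESeq2 or limma-voom, and Junb, the 1 gene with an unadjusted p under 0.05 by edgeR, had it between Tg4-42 vehicle and WT vehicle mice, with a log2 fold change of -0.50 (edgeR adjusted p 1.00). The part of activity, or of the hour at which a mouse was killed, in the spread of the period genes was not tested.

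Relations between clock genes were computed over the 9 mice for 6 pairs, with exact permutation p-values adjusted over the 6. Arntl and Dbp, which lie on opposite arms of the loop, had a Pearson r of -0.75 (permutation p 0.0196, adjusted 0.0590) and a Spearman rho of -0.57 (permutation p 0.121, adjusted 0.241). Per1 and Per2 had an r of 0.81 (permutation p 0.0197, adjusted 0.0590) and a rho of 0.60 (permutation p 0.0968, adjusted 0.241), and Arntl and Per2 an r of 0.67 (permutation p 0.0457, adjusted 0.0915) and a rho of 0.77 (permutation p 0.0214, adjusted 0.128). None of the 6 passed the adjusted threshold. The Per1 and Per2 relation rested on WT vehicle mouse 3 and caffeine mouse 1, since r was -0.02 without them. Without caffeine mice 2 and 3, the mice farthest from the median of Arntl, r was -0.36 for Arntl and Dbp and 0.57 for Arntl and Per2. As a description, r of the deviations from the group means, pooled over the 9 mice, was 0.95 for Per1 and Per2, 0.73 for Arntl and Per2 and -0.61 for Arntl and Dbp. These pooled values were not computed for single groups or with any mouse left out. The remaining pairs had an r of 0.06 for Per2 and Per3 (rho -0.08, permutation p 0.879 and 0.843), -0.13 for Dbp and Nr1d1 (rho -0.05, permutation p 0.742 and 0.912) and 0.00 for Clock and Npas2 (rho 0.00, permutation p 0.996 and 1.00). Over the 6 mice of lane 6 alone, r was -0.78 for Arntl and Dbp, 0.41 for Arntl and Per2, 0.85 for Per1 and Per2, 0.59 for Per2 and Per3, -0.01 for Dbp and Nr1d1 and 0.59 for Clock and Npas2, and lane 7 holds 3 mice only.

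**Figure D5:**
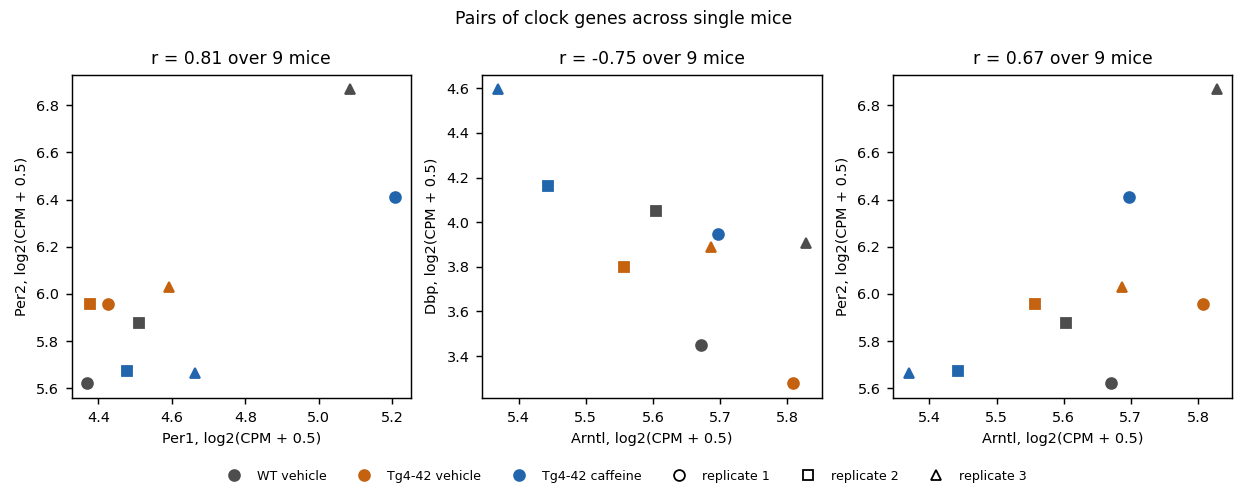
Pairs of clock genes across single mice on log2(CPM + 0.5) axes, Per2 against Per1, Dbp against Arntl and Per2 against Arntl, with 1 point per mouse, colors for the groups and marker shapes for the replicates. In the first panel WT vehicle mouse 3 and caffeine mouse 1 lie apart from the other mice, and in the second caffeine mice 2 and 3 combine the lowest Arntl with high Dbp.

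Among all tested genes, those with the pattern most like Per1 over the 9 mice were Spag5 (Pearson r 0.94), Cry1 (0.93) and Prickle1 (0.93), and 5 genes had an r of at least 0.9. For Dbp they were Rnf220 (0.99), Bloc1s4 (0.99) and Stard7 (0.98), with 125 genes at or above 0.9, and for Arntl Mamdc2 (0.99), Dlg1 (0.98) and Srpk2 (0.97), with 102 genes. With 17361 genes and 9 mice such values are a description of likeness only. Cry1 was thus the only other clock gene among the 9 nearest patterns.

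Of 11 other genes of the loop that were tested, 0 passed the threshold in any comparison by edgeR, DESeq2 or limma-voom, with edgeR's unadjusted p under 0.05 in 2 (Ciart and Timeless) between Tg4-42 vehicle and WT vehicle mice, in 1 (Ciart) between Tg4-42 caffeine and Tg4-42 vehicle mice and in 0 between Tg4-42 caffeine and WT vehicle mice. The shares of all tested genes under it were 2.74%, 17.0% and 15.4% in the same order. Ciart, a repressor of the activating pair also called Chrono, was at 30.0, 39.5 and 38.1 CPM in WT vehicle, 23.3, 19.4 and 28.0 CPM in Tg4-42 vehicle and 41.3, 25.9 and 30.3 CPM in Tg4-42 caffeine mice. The Tg4-42 vehicle mice were all below the WT vehicle mice, and the caffeine mice overlapped both. The log2 fold change was -0.61 (standard error 0.189, unadjusted p 0.00534, adjusted p 1.00 by edgeR) between Tg4-42 vehicle and WT vehicle mice and 0.47 (adjusted p 0.224) between Tg4-42 caffeine and Tg4-42 vehicle mice. Timeless, a gene of replication fork protection whose role in the mammalian clock is debated, was higher in all Tg4-42 vehicle mice (4.76, 6.10 and 6.34 CPM) than in all WT vehicle mice (4.63, 3.41 and 3.04 CPM), with a log2 fold change of 0.65 and an edgeR adjusted p of 1.00.

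The other D-box genes stood nearer to 0 than Dbp. Hlf, Tef and the repressor Nfil3 had log2 fold changes of 0.25, 0.13 and -0.04 between Tg4-42 caffeine and Tg4-42 vehicle mice (edgeR adjusted p 0.514, 0.654 and 0.964), beside the 0.59 of Dbp, which did not pass either, and these differences between genes were not tested. Among the receptors that activate Arntl, Rora had -0.16 and Rorb -1.11 in that comparison (edgeR adjusted p 0.807 and 0.535). Rorb varied 8.14 times between the mice, from 5.46 CPM in caffeine mouse 3 to 44.4 CPM in WT vehicle mouse 3, and its groups overlapped. Bhlhe40 and Bhlhe41, repressors that compete for E-boxes, had -0.18 and -0.09, and Arntl2 had 0.16 (edgeR adjusted p 0.675, 0.823 and 0.595).

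Around the loop, 22 kinases, ligases and partners of clock proteins were all tested. By edgeR 0 passed the threshold in any comparison, with unadjusted p under 0.05 in 1 gene between Tg4-42 vehicle and WT vehicle mice, in 3 between Tg4-42 caffeine and Tg4-42 vehicle mice and in 3 between Tg4-42 caffeine and WT vehicle mice. Across all tested genes 2.74%, 17.0% and 15.4% were under it in the same order. DESeq2 called Usp7 and Ncor1 between Tg4-42 caffeine and Tg4-42 vehicle mice, as did limma-voom, and DESeq2 also called Ncor1 between Tg4-42 caffeine and WT vehicle mice. Without the filter on low counts edgeR called them as well, with adjusted p of 0.0253 for Usp7 and 0.0401 for Ncor1 between Tg4-42 caffeine and Tg4-42 vehicle mice and 0.028 for Ncor1 between Tg4-42 caffeine and WT vehicle mice. The share of all genes called without the filter is not given here. Such calls, for these genes and for Por and Cys1 below, therefore have no background beside them. Usp7, a deubiquitinase that stabilizes cryptochromes, had the smallest p between Tg4-42 caffeine and Tg4-42 vehicle mice, with a log2 fold change of 0.47 (adjusted p 0.0758 by edgeR, 0.00862 by DESeq2 and 0.0335 by limma-voom), 124 to 129 CPM in caffeine mice and 78.3 to 100.3 CPM in Tg4-42 vehicle mice without overlap. It also had the smallest p between Tg4-42 vehicle and WT vehicle mice (-0.26, adjusted p 1.00). Ncor1, the corepressor that Nr1d1 recruits, had it between Tg4-42 caffeine and WT vehicle mice, with a log2 fold change of 0.47 (adjusted p 0.0902 by edgeR and 0.00918 by DESeq2). Its level was 247 to 318 CPM in caffeine mice, above the 193 to 202 CPM of WT vehicle and the 190 to 209 CPM of Tg4-42 vehicle mice. Of 12 output genes 10 were tested and 0 passed by edgeR, with unadjusted p under 0.05 in 0, 4 and 3 genes in the same order of comparisons. Beside the same shares of all tested genes, such counts in short lists were not read as a result about the lists. Por, a cytochrome P450 reductase gene, came nearest to the threshold with a log2 fold change of -0.55 between Tg4-42 caffeine and Tg4-42 vehicle mice (adjusted p 0.0507 by edgeR), and was called by DESeq2 (0.00299) and by limma-voom (0.0197). By edgeR it also passed with only the 2 groups (adjusted p 0.0463), with a mean count of at least 50 (0.0391) and without the filter (0.00884), but not with RLE scaling (0.0573) or the lane in the model (0.0754). Its level was 152 to 183 CPM in caffeine mice and 225 to 268 CPM in Tg4-42 vehicle mice, without overlap. Cys1 was nearest between Tg4-42 caffeine and WT vehicle mice with 0.63 (adjusted p 0.0916 by edgeR), where DESeq2 called it and Por, as did edgeR without the filter (adjusted p 0.0112 and 0.0415), and Lonrf3 between Tg4-42 vehicle and WT vehicle mice with 0.53 (adjusted p 1.00). Of 14 glucocorticoid-responsive genes 13 were tested and 0 passed by edgeR, DESeq2 or limma-voom, with unadjusted p under 0.05 by edgeR in 0, 2 and 0 genes, beside the same shares. The smallest p belonged to Pdk4 between Tg4-42 vehicle and WT vehicle mice (log2 fold change 0.93, edgeR adjusted p 1.00), Klf9 between Tg4-42 caffeine and Tg4-42 vehicle mice (0.41, adjusted p 0.202) and Tsc22d3 between Tg4-42 caffeine and WT vehicle mice (-0.35, adjusted p 0.360).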

How the data were processed

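The authors aligned single-end reads to mm10 with STAR and deposited exon counts per gene from featureCounts, without normalization (versions not given in the sources used here). Symbols, positions and exon lengths came from GENCODE M21. Genes were filtered with edgeR's defaults (minimum count 10, minimum total 15), scaled by TMM and compared in R 4.3.3 with edgeR 4.0.16, as a robust quasi-likelihood fit of all 9 libraries with 3 contrasts, Benjamini-Hochberg adjustment and a threshold of 0.05. Alternatives were DESeq2 1.42.0, limma-voom 3.58.1 with quality weights, RLE scaling, other filters, only 2 groups, the lane, and each mouse left out. For single genes, log2(CPM + 0.5) was compared by exact permutation of the mice, two-sided. The detection floor covers counting error only. The confidence intervals of log2 fold changes come from the edgeR fit and include the spread between mice of a group. The labels name separate animals but not cages or litters, and mention 6 mice per group where the methods give 3. Replicates are numbered in accession order. The named genes are the clock genes, the other loop genes, and in the other lists those with an adjusted p under 0.05 or the smallest p, besides the nearest patterns of Per1, Dbp and Arntl. Another loop gene is not reported here. Fos was named after its values were seen. The clock genes and lists were chosen with earlier results of these data known. The fit was tested on simulated data.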

Additional observations from a re-analysis of the deposited data

How the results depend on the processing

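With 8 other settings (DESeq2, limma-voom, RLE scaling, no filter, a mean count of at least 50, only the 2 groups compared, the lane in the model and lane 6 alone) and each mouse left out in turn, 0 clock genes were called in any of the 3 comparisons, and 38 of 420 recomputed log2 fold changes of single genes changed sign. The median of the 10 genes ranged over single mice left out from -0.22 to 0.055 between Tg4-42 vehicle and WT vehicle, and with lane 6 alone it was 0.29 between Tg4-42 caffeine and WT vehicle. Signs turned, with lane 6 alone, for Per2 (0.19), Cry1 (0.11), Cry2 (0.052) and Arntl (0.037) between Tg4-42 vehicle and WT vehicle, Per2 (0.15) and Nr1d1 (0.13) between Tg4-42 caffeine and Tg4-42 vehicle, and Per2 (0.34) and Npas2 (0.046) between Tg4-42 caffeine and WT vehicle. Nr1d1 between Tg4-42 caffeine and Tg4-42 vehicle became 0.0105 with DESeq2, 0.0100 with RLE, 0.0062 with 2 groups, 0.016 without the filter and 0.0036 with the lane. Per3 became -0.0095 with limma-voom between Tg4-42 vehicle and WT vehicle, and r of Clock and Npas2 became -0.032 with RLE. Leaving out single mice gave ranges that crossed 0 for Per1 (-0.37 to 0.017), Per2 (-0.48 to 0.22), Per3 (-0.10 to 0.14), Cry1 (-0.22 to 0.26), Cry2 (-0.21 to 0.070), Arntl (-0.082 to 0.042) and Dbp (-0.30 to 0.017) between Tg4-42 vehicle and WT vehicle, for Per2 (-0.32 to 0.11), Clock (-0.067 to 0.026) and Nr1d1 (-0.21 to 0.14) between Tg4-42 caffeine and Tg4-42 vehicle, and for Per1 (-0.12 to 0.39), Per2 (-0.56 to 0.21) and Cry2 (-0.037 to 0.25) between Tg4-42 caffeine and WT vehicle. The cause was not tested. Per3 and Dbp between Tg4-42 caffeine and Tg4-42 vehicle stayed positive and Npas2 stayed negative throughout, with adjusted p from 0.088 to 0.90, 0.073 to 0.888 and 0.131 to 0.918. No paired analysis was possible because the labels give the groups no shared replicate numbers.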
